A study of Mus musculus with 8 samples.

Results

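GABA-A receptors are the main inhibitory receptors of the brain, and the 7 genes described here encode subunits of them: Gabra2, Gabra3, Gabra4, Gabra5, Gabrb1, Gabrb2 and Gabrd. They were picked by symbol among the 19 GABA-A receptor subunit genes in the count tables, which hold 54752 genes in all. The rule used no measured value, although the genes were chosen with earlier results of these data known. RNA-seq libraries were made from the right cerebral cortex of 8 wild type C57BL/6 mice, 1 mouse per library, taken 3 weeks after surgery. The 4 BCAS mice had bilateral carotid artery stenosis, in which a wire microcoil around each common carotid artery lowers blood flow to the forebrain, with the narrower coil on the right. The 4 sham mice had the operation without coils. All were adult males of the J substrain according to the methods. The question was how each subunit transcript differed between BCAS and sham cortex.

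Each GABA-A receptor is a pentameric chloride channel that GABA opens. The transmitter binds between an alpha and a beta subunit. A gamma subunit usually completes the synaptic receptors and creates, with an alpha subunit, the benzodiazepine site. The delta subunit takes that place in receptors outside the synapse, which answer to low ambient GABA with a lasting, tonic current. The alpha subunit sets much of the kinetics, drug response and location of the channel.

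The total counts were 16759364 to 21794435 per library, and each member had 560 to 3837 counts in a library. Levels are given as CPM, the count relative to the library total after TMM scaling, which assumes that most genes do not differ between libraries. Marker lists checked the tissue and its makeup. No marker on these lists was at 0 in any library. The 14 pan-neuronal markers summed to 10682 to 12209 CPM in sham mice and to 4094 to 9139 CPM in BCAS mice. Of them, 9 were lower at an adjusted p under 0.05, beside 12.8% of all tested genes. The 10 markers of microglia and macrophages summed to 281 to 340 CPM in sham and to 1237 to 4762 CPM in BCAS mice. At the same threshold all 10 were higher, beside 19.2% of all tested genes. Markers of cortical excitatory neurons (5 of 10) and interneurons (3 of 8) were also called lower, beside 12.8% of all tested genes. Markers of oligodendrocyte precursors (3 of 6), of endothelial and mural cells (2 of 7) and of striatum (1 of 6) were called higher, beside 19.2% of all tested genes. None of the 8 oligodendrocyte markers was called in either direction. Of the hippocampal markers tested, 1 of 5 was called lower, beside 12.8% of all tested genes. The mean of the striatal markers stood 1.39 above the sham mean on the log2 CPM scale in BCAS mouse 4 and 0.21 to 0.46 above it in the other BCAS mice, which lay within the sham range of -0.46 to 0.58. The part of these shifts in the values below was not tested, and in bulk tissue fewer neurons and less RNA per neuron cannot be told apart.

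All members but Gabrd lie in clusters of this gene family, with coordinates given here on mm10. On chromosome 5, Gabra2 (ENSMUSG00000000560.9, chr5:70957597-71095849, minus strand) and Gabra4 (ENSMUSG00000029211.11, chr5:71569749-71658308, minus strand) are followed by Gabrb1 (ENSMUSG00000029212.11, chr5:71658113-72149037, plus strand). Gabra4 and Gabrb1 stand head to head, with starts 195 bases apart and 46 shared exon bases, which are 0.8% of the exon bases of Gabra4 and 0.3% of those of Gabrb1. Gabra5 (ENSMUSG00000055078.7, chr7:57407672-57510059, minus strand) shares 5.0% of its exon bases with Gm9962 on the other strand. Gabrb2 (ENSMUSG00000007653.12, chr11:42419757-42629028, plus strand) lies beside Gabra6. Gabra3 (ENSMUSG00000031343.13, chrX:72432681-72656848, minus strand) lies between Gabre and Gabrq. Gabrd (ENSMUSG00000029054.8, chr4:155384980-155398112, minus strand) stands alone, with no other subunit gene near it. The counting used no strand, so reads in shared exon bases could not be told apart.

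RefSeq start sites (GRCm38.p6) gave promoter windows for 6 of the 7 members. The 250 bases before the start of the first RefSeq transcript are printed for Gabra2 and Gabra4, neighbours on chromosome 5 of which Gabra4 alone passed the test below, for Gabra5, which also passed it, and for Gabrb2, which was lower in every BCAS mouse. All read 5′ to 3′ on the strand of the gene, and capitals mark a TATA box (TATAAA) or a GC box (GGGCGG) on either strand. The windows are chr5:71095850-71096099 for Gabra2, chr5:71658364-71658558 for Gabra4, which is 195 bases long because the bases next to the start, which lie in a Gabrb1 exon, are left out, chr7:57510060-57510309 for Gabra5 and chr11:42420190-42420439 for Gabrb2. The Gabrb2 window lies inside the gene model used for counting, which starts further upstream at chr11:42419757.
Gabra2: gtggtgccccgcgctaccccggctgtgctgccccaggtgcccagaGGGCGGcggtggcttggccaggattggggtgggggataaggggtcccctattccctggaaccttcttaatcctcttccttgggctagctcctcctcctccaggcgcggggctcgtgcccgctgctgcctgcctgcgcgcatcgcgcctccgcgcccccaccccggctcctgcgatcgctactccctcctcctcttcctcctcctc
Gabra4: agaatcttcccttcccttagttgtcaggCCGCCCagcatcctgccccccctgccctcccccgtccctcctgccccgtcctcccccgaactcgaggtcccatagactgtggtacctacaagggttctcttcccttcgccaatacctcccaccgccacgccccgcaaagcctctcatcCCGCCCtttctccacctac
Gabra5: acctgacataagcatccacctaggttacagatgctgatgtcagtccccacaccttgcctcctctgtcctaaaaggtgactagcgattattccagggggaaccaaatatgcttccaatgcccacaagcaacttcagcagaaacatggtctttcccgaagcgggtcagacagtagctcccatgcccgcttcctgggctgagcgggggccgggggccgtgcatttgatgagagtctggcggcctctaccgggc
Gabrb2: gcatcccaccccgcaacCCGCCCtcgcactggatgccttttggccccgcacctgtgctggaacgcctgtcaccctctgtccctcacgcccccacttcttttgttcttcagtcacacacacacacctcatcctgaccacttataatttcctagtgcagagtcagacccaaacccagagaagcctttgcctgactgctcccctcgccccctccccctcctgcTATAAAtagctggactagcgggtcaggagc

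The window of Gabra2 holds 1 GC box and that of Gabra4 holds 2. The window of Gabrb2 holds 1 GC box and 1 TATA box, and that of Gabra5 holds neither. Among 32851 mouse promoter windows of 250 bases, 32.7% held a GC box and 12.4% a TATA box. The cyclic AMP response element (TGACGTCA), found in 1.55% of all windows, was in no window of these 6 members. The share of G and C was 70.0% for Gabra2, 61.2% for the whole window of Gabra4, 56.4% for Gabra5 and 58.8% for Gabrb2, beside a median of 52.4% over all windows. Windows that are not printed lay on both sides of this median. They had 39.2% and 42.4% for Gabra3, each with a TATA box, 64.4% and 50.8% for Gabrb1, and 54.0% and 36.8% at later starts of Gabrb2. A match here is a match of letters and no measured site.

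The transcripts of 3 of the 7 members were lower in BCAS cortex at an adjusted p under 0.05: Gabrd, Gabra5 and Gabra4. They encode the delta, alpha5 and alpha4 subunits. For comparison, 12.8% of the 17136 genes tested were lower by the same rule. No member was higher, also at an unadjusted p under 0.05, while 19.2% of all genes were higher at an adjusted p under 0.05. All 7 log2 fold changes were negative, and their median was -0.69, beside -0.01 over all tested genes.

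**Figure D1:**
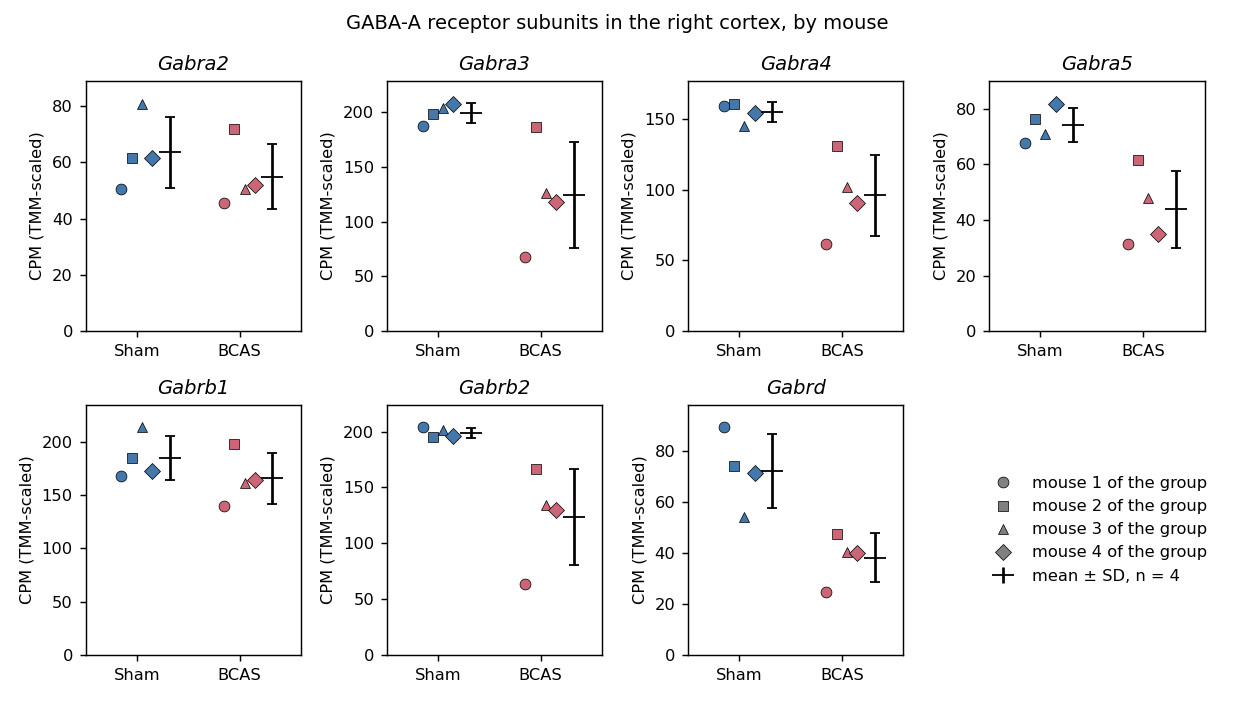
TMM-scaled CPM of the 7 members in each of the 8 mice, 1 panel per gene with its own axis from 0, with a symbol for each mouse and a cross bar for the group mean ± SD (n = 4). The BCAS mice lie below all sham mice for Gabra3, Gabra4, Gabra5, Gabrb2 and Gabrd, and the groups overlap for Gabra2 and Gabrb1.

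Gabrd encodes the delta subunit, the mark of receptors that carry tonic inhibition. Its levels in sham mice 1 to 4 were 89.3, 74.2, 54.1 and 71.5 CPM, and those in BCAS mice 1 to 4 were 24.6, 47.5, 40.2 and 40.2 CPM. The highest BCAS mouse lay under the lowest sham mouse, although sham mouse 3 stood well below the other sham mice. The mean fell from 72.3 ± 14.4 to 38.1 ± 9.64 CPM (SD, n = 4 each), to 52.8% of the sham level, with a log2 fold change of -0.92 (SE 0.21, adjusted p = 0.0139 by edgeR). This was the largest fold change of the 7 members. The call held in all 8 fits that left out 1 mouse, with adjusted p between 0.00367 and 0.0461.

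Gabra4 encodes alpha4, the usual partner of delta in forebrain. It measured 159.0, 160.8, 145.05 and 154.1 CPM in the sham group, against 61.5, 130.7, 101.7 and 90.4 CPM in the BCAS group. The sham mice lay close together, and the BCAS mice spread widely below them. The mean fell from 155 ± 7.05 to 96.1 ± 28.6 CPM, with a log2 fold change of -0.69 (SE 0.19, adjusted p = 0.0278 by edgeR). This call did not survive the removal of sham mouse 1, 2 or 4, or of BCAS mouse 3 or 4 (adjusted p up to 0.0716).

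Gabra5 encodes alpha5, which in cortex and hippocampus sits mostly outside the synapse beside beta and gamma subunits. Its levels were 67.7, 76.3, 70.8 and 81.8 CPM in the sham group, against 31.2, 61.7, 47.9 and 34.8 CPM in the BCAS group. Again no BCAS mouse reached the sham range, and BCAS mouse 2 came nearest to it. The mean fell from 74.2 ± 6.21 to 43.9 ± 13.9 CPM, a log2 fold change of -0.76 (SE 0.20, adjusted p = 0.0225 by edgeR). The call was lost without sham mouse 1, 2 or 4 or BCAS mouse 4, with adjusted p up to 0.0634.

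Gabra3 and Gabrb2 were lower in every BCAS mouse than in any sham mouse but missed the threshold. Gabra3 encodes alpha3, a synaptic alpha subunit, and measured 187.1, 198.2, 203.5 and 207.8 CPM in the sham group, against 67.4, 186.1, 126.2 and 117.8 CPM in the BCAS group. BCAS mouse 2 lay just under the lowest sham mouse, and BCAS mouse 1 lay far below. The means were 199 ± 8.91 and 124 ± 48.7 CPM, with a log2 fold change of -0.68 (SE 0.25, adjusted p = 0.0627 by edgeR). Gabrb2 encodes beta2, a common beta subunit of synaptic receptors in cortex. It measured 203.7, 194.8, 201.5 and 195.8 CPM in the sham group, against 63.9, 166.6, 134.2 and 129.5 CPM in the BCAS group. Its sham mice were the most alike of any member, and its BCAS mice covered a wide range. The means were 199 ± 4.32 and 124 ± 43.1 CPM, with a log2 fold change of -0.69 (SE 0.24, adjusted p = 0.0535 by edgeR). Both passed the threshold without BCAS mouse 1, without BCAS mouse 2, and with DESeq2 (adjusted p = 0.0283 for Gabra3 and 0.0213 for Gabrb2).

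The groups did not overlap for 5 of the 7 members, all with BCAS lower, as was so for 16.3% of all tested genes. No member had a log2 fold change below -1 at an adjusted p under 0.05 (0 also at an unadjusted p under 0.05, and 0 by DESeq2 and limma), a rule that 1.28% of all genes met. Without sham mouse 3, and without BCAS mouse 2, 1 member met it.

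Gabra2 and Gabrb1 overlapped between the groups. Gabra2 encodes alpha2, which is known at synapses on the axon initial segment. It measured 50.5, 61.6, 80.9 and 61.6 CPM in the sham group, against 45.5, 71.9, 50.7 and 51.9 CPM in the BCAS group. The second highest of all 8 values was thus that of a BCAS mouse. The log2 fold change was -0.21 (SE 0.17, adjusted p = 0.367 by edgeR), from 63.6 ± 12.6 to 55.0 ± 11.6 CPM. It lay between -0.36 and -0.08 in the 8 fits that left out 1 mouse, none of which called it. Gabrb1 encodes beta1, a subunit that astrocytes as well as neurons are known to express. It measured 167.7, 185.1, 213.6 and 172.8 CPM in the sham group, against 140.1, 197.6, 161.2 and 164.4 CPM in the BCAS group. One BCAS mouse exceeded 3 of the 4 sham mice. The log2 fold change was -0.16 (SE 0.12, adjusted p = 0.345 by edgeR), from 185 ± 20.5 to 166 ± 23.8 CPM. Leaving out 1 mouse gave values between -0.24 and -0.07, with no call in any of the 8 fits. The 8 astrocyte markers summed to 4838 to 5605 CPM in sham and 5629 to 6670 CPM in BCAS mice. Of these markers 7 were called higher, beside 19.2% of all tested genes. The part of the astrocyte markers in the level of Gabrb1 was not tested.

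**Figure D2:**
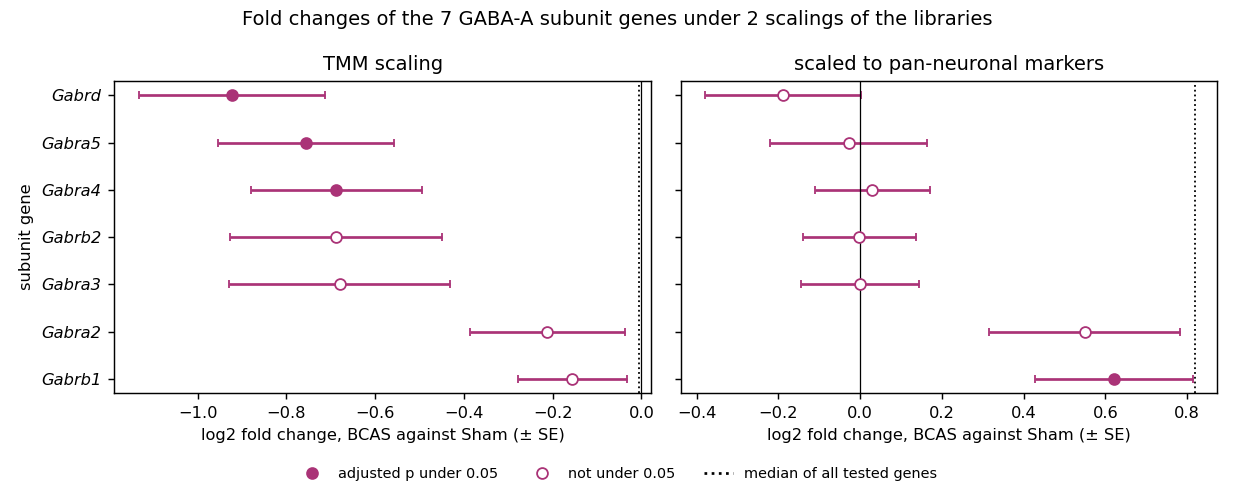
Log2 fold change of BCAS over sham (bars show ± SE) for the 7 members, with TMM scaling and with libraries scaled to the pan-neuronal markers; filled points have an adjusted p under 0.05 and the dotted line is the median of all tested genes. With TMM scaling the members run from -0.92 for Gabrd to -0.16 for Gabrb1, and with neuronal scaling they run from -0.19 to 0.62.

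Because pan-neuronal markers were lower in BCAS mice, the members were also set relative to them, by scaling each library to the 14 markers. This scaling moved the median log2 fold change of all tested genes to 0.82. Gabra3, Gabrb2, Gabra4 and Gabra5 then stood at -0.00, -0.00, 0.03 and -0.03, and Gabrd at -0.19. No member was lower by edgeR on this scale, also at an unadjusted p under 0.05, where 0.233% of all genes were lower. Gabra2 stood at 0.55 (adjusted p = 0.0621) and Gabrb1 at 0.62 (adjusted p = 0.0236), so that Gabrb1 was the 1 member called higher, beside 60.0% of all genes. The values of Gabra2, Gabra4 and Gabrb1 were thus positive on this scale, that of Gabra4 within its SE of 0.14. All 7 members lay below the median of all genes with either scaling. Because the scaling shifts all genes of a library together, this position is no separate check.

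In the BCAS group the members ranked the same mice lowest and highest. BCAS mouse 1 had the lowest value of the 4 BCAS mice and BCAS mouse 2 the highest for all 7 members. Relative to the sham mean on the log2 CPM scale, Gabrb2 stood at -1.64, -0.26, -0.57 and -0.62 in BCAS mice 1 to 4, and Gabrd at -1.53, -0.58, -0.82 and -0.82. Gabrb1 stood at -0.39, 0.10, -0.19 and -0.16 in the same mice. The mean of the pan-neuronal markers stood at -1.46, -0.28, -0.62 and -0.69, so BCAS mouse 1 was also lowest and BCAS mouse 2 highest for these markers. The astrocyte markers stood at 0.85, 0.29, 0.58 and 0.70. The sham mice showed no such common order, with Gabrd at 0.33, 0.06, -0.40 and 0.01 and Gabra2 at -0.31, -0.03, 0.37 and -0.03 in sham mice 1 to 4.

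**Figure D3:**
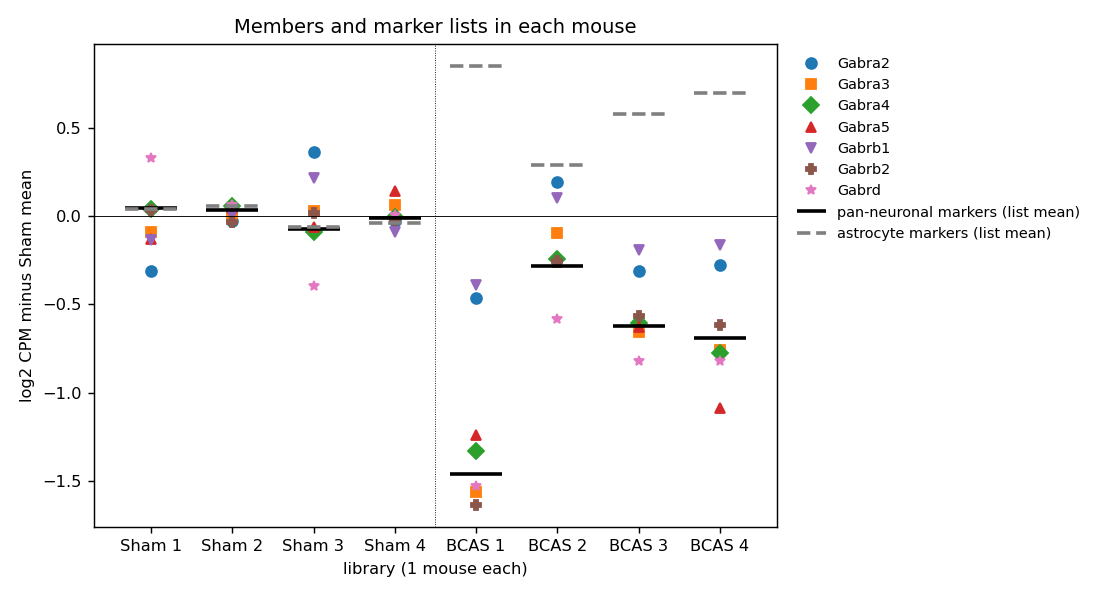
Log2 CPM of each member minus its sham mean in the 8 mice, with the mean of the pan-neuronal markers as solid dashes and of the astrocyte markers as broken dashes. In BCAS mouse 1 the pan-neuronal mean is -1.46, with Gabra3, Gabra4, Gabra5, Gabrb2 and Gabrd from -1.64 to -1.24 and Gabra2 and Gabrb1 at -0.46 and -0.39.

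The members were alike to different degrees over the 8 libraries. Pearson r of log2 CPM was 0.982 between Gabra3 and Gabrb2 and 0.981 between Gabra3 and Gabra4. Gabra2 and Gabrb1 had r = 0.960 with each other, and Gabra2 had r = 0.355 with Gabrd, the lowest of the 21 pairs. Gabrb1 had r = 0.820 with Gabra3 and 0.771 with Gabrb2, and Gabrd had r = 0.882 with Gabra3 and 0.875 with Gabra5. These values describe libraries that share the split into groups and BCAS mouse 1. Among 15836 genes, those most like the mean of the 7 members were Tspan13 (r = 0.998), March6 (0.998), Fam49a (0.998), Gal3st3 (0.997) and Camsap2 (0.997), over the same 8 libraries. Gal3st3 had a log2 fold change of -0.62 (adjusted p = 0.0461 by edgeR) and Tspan13 one of -0.42 (adjusted p = 0.0462). The other three missed the threshold, with -0.35 for March6 (adjusted p = 0.0634), -0.48 for Fam49a (adjusted p = 0.0513) and -0.39 for Camsap2 (adjusted p = 0.0557).

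The head-to-head pair on chromosome 5 can be compared within each library. The log2 ratio of Gabra4 to Gabrb1 counts was -0.08, -0.20, -0.56 and -0.17 in the sham group, against -1.19, -0.60, -0.66 and -0.86 in BCAS mice. The ratio was lower in every BCAS mouse than in any sham mouse, although sham mouse 3 came close to BCAS mouse 2. It takes no library scaling, and it is given without a test.

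**Figure D4:**
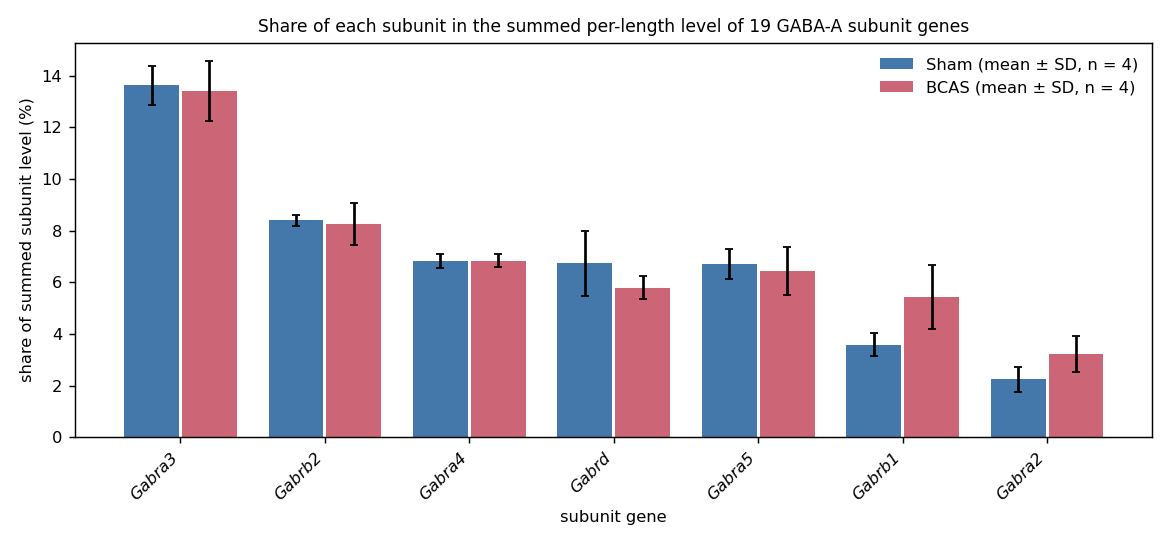
Share of each member in the summed CPM per kilobase of all 19 GABA-A subunits, in percent, for the 7 members, with columns for the group mean and error bars for the SD (n = 4). Gabra3 holds 13.6% in sham and 13.4% in BCAS mice, and Gabrb1 3.59% and 5.43%.

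Levels were compared between subunits only per kilobase of exon, on the CPM per kilobase scale. In sham mice the order of the members was Gabra3 (50.8 ± 2.27), Gabrb2 (31.3 ± 0.679), Gabra4 (25.4 ± 1.16), Gabrd (25.1 ± 5.02), Gabra5 (24.9 ± 2.09), Gabrb1 (13.4 ± 1.48) and Gabra2 (8.33 ± 1.65). Gabra4, Gabrd and Gabra5 did not differ beyond their spread, and the range of Gabrd also reached that of Gabrb2, since sham mouse 1 had 31.1. The sham ranges of the other neighbours in this order did not overlap. In BCAS mice the order was Gabra3 (31.7 ± 12.4), Gabrb2 (19.4 ± 6.77), Gabra4 (15.8 ± 4.70), Gabra5 (14.8 ± 4.66), Gabrd (13.3 ± 3.35), Gabrb1 (11.99 ± 1.72) and Gabra2 (7.20 ± 1.52), and the ranges of neighbours overlapped from Gabra3 to Gabrb1. The 7 members together had 178.4, 180.5, 176.0 and 182.0 in the sham group, against 72.5, 156.1, 118.4 and 109.6 in the BCAS group, of 365.5 to 379.4 and 140.5 to 316.6 for all 19 subunits. The members made up 48.1% of the sum in sham mice, or 41.6% by CPM without the division by length.

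The shares of most members in that sum stayed within the spread of the mice. Gabra4 held 6.83 ± 0.26% in sham and 6.84 ± 0.25% in BCAS mice, Gabrb2 held 8.40 ± 0.20% and 8.26 ± 0.80%, and Gabrd held 6.74 ± 1.25% and 5.80 ± 0.45%. Gabrb1 was the 1 member whose shares did not overlap, with 3.19% to 4.22% in sham and 4.51% to 7.21% in BCAS mice. Gabra2 went from 2.24 ± 0.48% to 3.23 ± 0.69%, with overlap.

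Of the 12 other GABA-A subunits, 8 had enough counts to be tested. Of these 3 were lower, beside 12.8% of all tested genes, and none higher, beside 19.2% (0 by edgeR, also at an unadjusted p under 0.05, and 0 by DESeq2 and limma, with Gabre at an unadjusted p under 0.05 in both limma fits). The 3 included Gabrg3, which encodes a gamma subunit and fell by 0.56 on the log2 scale (SE 0.18, adjusted p = 0.0440 by edgeR). No call among the 12 was left without sham mouse 1, 2 or 4 or without BCAS mouse 3, 1 was left without sham mouse 3 or BCAS mouse 4 or with library size alone, and 2 without BCAS mouse 1. Gabrg1, which like Gabrb1 is known from astrocytes, had a log2 fold change of -0.12 (adjusted p = 0.533). Gabre, Gabrq and Gabrr2 were scarce, with adjusted p of 0.200, 0.933 and 0.854, and Gabra6, Gabrr1, Gabrr3 and Gabrp were under the filter, Gabrp with no count in any library.

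The partners of the receptor gave a mixed picture. Of 10 genes of the inhibitory postsynaptic scaffold, 5 were lower and 1 higher, beside 12.8% and 19.2% of all tested genes, with a median log2 fold change of -0.44. Iqsec3, an exchange factor of inhibitory synapses that binds gephyrin, fell by 0.69 on the log2 scale (SE 0.15, adjusted p = 0.0125). Gabarap, which encodes a protein that binds GABA-A receptors and also serves autophagy, rose by 0.59 (SE 0.13, adjusted p = 0.0138). Clptm1, a regulator of receptor exit from the endoplasmic reticulum, had a log2 fold change of -0.07 (adjusted p = 0.459) and Shisa7, an auxiliary subunit, one of -0.39 (adjusted p = 0.0839). Without any 1 of the 4 sham mice, or without BCAS mouse 3 or 4, only Iqsec3 of the 5 stayed lower, and without BCAS mouse 2 there were 7. Library size alone left 2 lower genes, and with scaling to pan-neuronal markers none was lower, Iqsec3 included, and 3 were higher. With that last scaling 0.233% of all tested genes were lower and 60.0% higher.

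Genes that make, move and break down GABA went both ways, from -0.53 to 0.95 with a median of -0.06. Of the 8 genes, 1 was lower and 1 higher, which is no more than the 12.8% and 19.2% of all tested genes. Gad1, which encodes a GABA-synthesizing enzyme of interneurons, fell from 480 ± 93.6 to 333 ± 45.7 CPM (log2 fold change -0.53, SE 0.16, adjusted p = 0.0361), with overlapping groups. Gad2, which encodes another such enzyme, was not called, with a log2 fold change of 0.02 (SE 0.20, adjusted p = 0.958 by edgeR). It measured 204, 233, 175 and 355 CPM in BCAS mice 1 to 4. Slc6a13, a GABA transporter known from the meninges and vessels, rose from 11.5 ± 1.12 to 22.3 ± 4.11 CPM (log2 fold change 0.95, SE 0.15, adjusted p = 0.00380). The GABA transaminase Abat had a log2 fold change of 0.15 (adjusted p = 0.408). The call of Gad1 was lost without sham mouse 1, 2 or 4, without BCAS mouse 3 or 4, with library size alone and with scaling to pan-neuronal markers, and that of Slc6a13 held in each of these fits.

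Of 7 genes of the GABA-B receptor and of chloride transport, 2 were lower and 2 higher, beside 12.8% and 19.2% of all tested genes. Gabbr2, a subunit of the metabotropic GABA-B receptor, fell by 0.88 on the log2 scale (SE 0.28, adjusted p = 0.0397). Slc12a5, which encodes the neuronal chloride exporter KCC2 that keeps GABA-A currents inhibitory, fell by 0.74 (SE 0.22, adjusted p = 0.0343). Kctd12, an auxiliary GABA-B subunit that microglia are also known to express, rose by 1.36 (SE 0.24, adjusted p = 0.00602). Gabbr1 had -0.51 (adjusted p = 0.0523) and Kctd16 -0.67 (adjusted p = 0.120). Both lower calls were lost without any 1 of the 4 sham mice, without BCAS mouse 3 or 4, with scaling to pan-neuronal markers and with the replicate number as a block, whereas Kctd12 stayed higher in each of these fits. Without BCAS mouse 2 there were 4 lower genes.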

How the data were processed

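RNA-seq read pairs were, per the methods and the submitters' processing notes, trimmed with Trim Galore, aligned to mm10 with HISAT2 and sorted with SAMtools 1.9. The authors deposited raw counts per gene without normalization. The file headers name featureCounts 2.0.1, GENCODE vM20 and no strand option, whereas the notes name version 1.6.3 and the methods RefSeq genes. All values here were computed from these counts. Symbols were matched by gene ID (54723 of 54752). The test was the quasi-likelihood F-test of edgeR 4.0.16 (R 4.3.3) with TMM scaling and filterByExpr (minimum count 10, minimum total 15), on 4 BCAS against 4 sham libraries without covariates, with Benjamini-Hochberg adjustment over 17136 genes. The SE was the log2 fold change over the root of F. The floor of 3 counts was 0.179 CPM in the smallest library and covers counting error only. Each library is 1 mouse, and no pair of libraries agreed within counting noise. DESeq2 1.42.0 and limma 3.58.1 gave alternatives. The members, lists and tests were chosen with earlier results of these data known. Named pathway genes were all subunits, and per further list the 3 largest fold changes among called genes and the 2 most abundant genes not called. Some of these are not reported here. The 5 genes most like the members were taken by Pearson r among genes of at least 1 CPM. Python 3.11.15 and its library matplotlib 3.10.9 made the figures.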

Additional observations from a re-analysis of the deposited data

How the results depend on the processing

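Gabra4, Gabra5 and Gabrd were called lower in all 10 fits that changed the scaling other than to neuronal markers, the filter, the tool or the block. The count of 3 members called lower became 5 with DESeq2, 5 with limma on log2(CPM + 1), 0 with scaling to pan-neuronal markers, and 1 to 5 when 1 mouse was left out: 1 without sham mouse 1, 2 or 4 or BCAS mouse 4, and 5 without BCAS mouse 1 or 2. The count below a log2 fold change of -1 was 0 to 1 on leaving out a mouse. The members' median of -0.69 became -0.0011 with neuronal scaling and lay between -0.86 and -0.46 without 1 mouse. Neuronal scaling, which moved the median of all genes to 0.82, gave a positive sign to Gabra2 (0.55), Gabra4 (0.030, within its SE of 0.14) and Gabrb1 (0.62). The 3 other subunits called lower became 1 with library size alone, 0 with neuronal scaling and 0 to 4 without 1 mouse. For the 3 pathway lists the same alternatives were added after seeing the data. The 5 scaffold genes lower became 2 with library size alone, 3 with the replicate block, 0 with neuronal scaling and 1 to 7 without 1 mouse, and the 1 higher became 3 with neuronal scaling. The 1 synthesis and transport gene lower became 0 with library size alone, 0 with neuronal scaling and 0 to 1 without 1 mouse, and the 1 higher became 6 with neuronal scaling. Neuronal scaling called 0.233% of all tested genes lower and 60.0% higher. The 2 GABA-B and chloride genes lower became 0 with neuronal scaling, 0 with the replicate block and 0 to 4 without 1 mouse, and the 2 higher became 1 to 2 without 1 mouse. The members' share of 48.1% was 41.6% without division by length. The cause of these changes was not tested. Of 133 alternative values of single members, 110 kept their direction and side of the threshold, 11 dropped out of the call, 9 gained it and 3 changed sign, all under neuronal scaling. Over all genes, the replicate block gave 1127 lower and 2419 higher genes in place of 2199 and 3291, leaving out sham mouse 1 gave 418 and 2131, and leaving out BCAS mouse 2 gave 3675 and 4491. With the replicate block, the same 3 members were lower and 2 in place of 3 other subunits. Same-numbered mice did not deviate together (r from -0.103 to 0.00126), and 0 of 8 libraries correlated best with its own number, so the numbers were not taken as pairs. The lowest count of a member in a library was 560, so no member value rested on few counts, and each group had only 4 mice.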
